A study of Homo sapiens with 12 samples.

Results

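A375 is an established human melanoma cell line. The comparison described here sets polysomal RNA of A375 cells given interferon-gamma (IFNg) for 24 h and silvestrol for 2 h against polysomal RNA of A375 cells given DMSO, the solvent control, for 2 h. The 4 arrays were chosen by their titles from the 12 Affymetrix arrays of the series, 2 with IFNg and silvestrol and 2 with DMSO. The other 8 arrays hold polysomal RNA of cells given IFNg alone for 24 h and total RNA under all the treatments named. The labels state cells of melanoma and no other agent, allele or sort, and no group received silvestrol without IFNg, so both agents and the hours of treatment differ together in this comparison. Whether the 2 replicates of a group were separate cultures is not stated, and a p-value here reflects the spread among the arrays, which may be technical.

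IFNg binds its receptor and acts through JAK kinases, and many of the genes it switches on carry GAS elements in their DNA or interferon-stimulated response elements, which are bound by factors such as IRF1. The genes switched on include those for antigen presentation, chemokines and the T cell inhibitory ligand PD-L1, and melanoma cells are among the cells that respond. Silvestrol is a plant-derived rocaglate that clamps the RNA helicase eIF4A onto mRNA, which blocks the scanning step by which ribosomes reach the start codon. Polysomal RNA is the RNA that travels with several ribosomes, so its level for a transcript reflects both how much of the transcript there is and how much of it is loaded.

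Promoter sequence is shown for 4 of the 10 genes that differed most upward and for EGR1, a rapidly induced transcription factor, because the motifs of the interferon and immediate early responses can be read in them. Each line holds the 250 bases before the RefSeq gene start (GRCh38.p14), 5′ to 3′ on the gene's strand. The windows are IRF1 at chr5:132490774-132491023 (minus strand), CXCL10 at chr4:76023498-76023747 (minus), GBP1 at chr1:89065209-89065458 (minus), CD274 at chr9:5450292-5450541 (plus) and EGR1 at chr5:138465229-138465478 (plus). Capitals mark a GAS motif (TTCNNNGAA) in IRF1, the core of the interferon-stimulated response element (ISRE, GAAA, any 2 bases, then GAAA, read on either strand) in CXCL10 and GBP1, both kinds in CD274, and CArG boxes, the sites of serum response factor, in EGR1.
IRF1: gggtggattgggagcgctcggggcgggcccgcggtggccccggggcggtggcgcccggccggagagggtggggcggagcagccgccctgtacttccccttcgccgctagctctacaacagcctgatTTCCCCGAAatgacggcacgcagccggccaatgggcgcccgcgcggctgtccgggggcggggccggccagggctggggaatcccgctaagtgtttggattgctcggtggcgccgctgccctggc
CXCL10: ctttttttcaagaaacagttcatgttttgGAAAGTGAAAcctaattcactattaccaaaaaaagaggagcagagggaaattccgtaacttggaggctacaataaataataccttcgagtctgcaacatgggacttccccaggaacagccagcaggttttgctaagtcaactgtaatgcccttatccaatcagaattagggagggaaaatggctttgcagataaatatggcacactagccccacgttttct
GBP1: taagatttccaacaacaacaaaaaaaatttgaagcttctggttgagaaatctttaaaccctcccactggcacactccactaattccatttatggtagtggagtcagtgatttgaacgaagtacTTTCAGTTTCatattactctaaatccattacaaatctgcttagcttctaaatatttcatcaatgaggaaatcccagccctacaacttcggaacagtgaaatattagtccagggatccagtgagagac
CD274: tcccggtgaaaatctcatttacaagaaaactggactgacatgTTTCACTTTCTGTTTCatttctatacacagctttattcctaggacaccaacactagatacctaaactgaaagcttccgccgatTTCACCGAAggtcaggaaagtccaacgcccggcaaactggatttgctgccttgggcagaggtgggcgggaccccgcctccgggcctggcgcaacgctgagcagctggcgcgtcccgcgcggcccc
EGR1: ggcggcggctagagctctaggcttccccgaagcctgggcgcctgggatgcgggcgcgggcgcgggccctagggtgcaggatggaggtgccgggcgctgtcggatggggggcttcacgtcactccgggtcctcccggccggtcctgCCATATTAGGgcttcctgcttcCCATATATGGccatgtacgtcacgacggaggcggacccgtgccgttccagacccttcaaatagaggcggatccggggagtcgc

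The GAS motif of IRF1 spans bases 124 to 116 before the start, and that of CD274 bases 125 to 117. The ISRE core lies 221 to 212 bases before the start in CXCL10 and 127 to 118 before it in GBP1, while CD274 has an overlapping pair from 208 to 193. The CArG boxes of EGR1 lie 105 to 96 and 83 to 74 bases before the start. EGR1 also holds a GAS motif and GBP1 a CArG box, which are left in lower case. Among all 27305 RefSeq promoters of this length, searched on both strands, 6.78% held a GAS motif, 3.07% an ISRE core, 1.14% a CArG box and 1.77% a cAMP response element (TGACGTCA). A promoter was given for 7 of the 10 largest rises, of which 3 held a GAS motif and 4 an ISRE core. Of the 9 promoters given for the 10 largest falls, 0 held a GAS motif, 0 an ISRE core and 1, ABCE1, a cAMP response element. A match describes these letters only.

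The deposited table holds 1 linear intensity for each of 65535 transcript clusters, probe groups each assigned to a transcribed locus by the maker, and each array. All values below are log2 of that intensity, and a change is the mean of the IFNg and silvestrol arrays minus the mean of the DMSO arrays, given ± the standard error from limma (2 arrays per group). A cluster was called where the adjusted p from limma, by the Benjamini-Hochberg method over all 65535 clusters, was below 0.05. The identifiers place the clusters on chromosomes 1 to 8 and on part of chromosome 9, and a platform annotation gives 16130 of them a single gene symbol. The mean intensity was 1614 and 1558 on the IFNg and silvestrol arrays, and 1469 and 1720 on the DMSO arrays. Of 17 cell type markers looked for, 3 were in the table: the melanocyte factor MITF measured 12.33 and 12.96 with IFNg and silvestrol and 14.50 and 13.61 with DMSO, while the melanocyte antigen MLANA lay at 5.85 and 5.49 against 6.24 and 6.94 and the leukocyte gene PTPRC at 4.51 and 4.83 against 4.68 and 4.83. MITF was bright on all 4 arrays, and MLANA, a defining marker of the lineage, was dim on each of them.

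With IFNg and silvestrol, 364 clusters were higher in polysomal RNA (0.555% of all tested) and 599 were lower (0.914%). The rises reached further than the falls. Of the rises, 181 were at least 4-fold, 81 at least 8-fold and 27 at least 32-fold, whereas 209 falls were at least 4-fold, 25 at least 8-fold and 0 at least 32-fold. The median size was 1.98 among the rises and 1.80 among the falls, with maxima of 11.82 and 4.30. Protein-coding genes made up 153 of the clusters that rose and 425 of those that fell, and 83 and 96 had no symbol. Each array reports the RNA put on it, so less polysomal RNA per cell and fewer cells cannot be told apart here. Leaving out 1 polysomal array moved these counts: without IFNg and silvestrol replicate 1 they were 147 higher and 148 lower, without replicate 2 of that group 302 and 297, without DMSO replicate 1 190 and 437, and without DMSO replicate 2 149 and 120. Centring each array on its bright clusters turned the balance to 739 higher and 378 lower, so that 66.2% of calls were higher against 37.8% as deposited, and moved the median change of all clusters to 0.30 from 0.03. Quantile normalization over all arrays gave 50.9% higher.

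Clusters with a mean log2 of at least 7 over the 12 arrays are called bright, and 7808 clusters met this bound. Of these, 244 were higher (3.12%) and 514 lower (6.58%). The mean includes the arrays compared, so a cluster dim with DMSO can be bright through the arrays of cells given IFNg. Strong rises can thus enter the bright set by their rise, and the share called higher among bright clusters depends in part on this bound. The median change of bright clusters was -0.23, whereas that of all clusters was 0.03. The share of clusters called grew with signal in both directions up to a mean of 13. Below a mean of 5, 0.100% of clusters were higher and 0.0405% lower, between 11 and 13 these shares were 3.56% and 9.83%, and at 13 and over they were 5.55% and 7.97%. Just inside the bound, 3 of the 238 clusters with means up to 7.10 were higher and 5 lower, and just outside it 8 and 4 of 209. The arrays of the groups did not overlap for 58.8% of bright clusters and for 40.6% of all, so absence of overlap alone separates little.

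**Figure D1:**
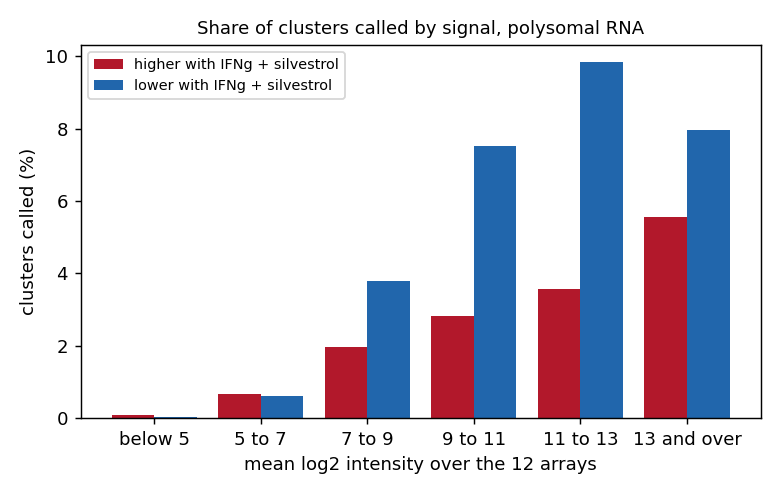
Share of clusters called higher (red) and lower (blue) with IFNg and silvestrol than with DMSO in polysomal RNA, in percent, by mean log2 intensity over the 12 arrays. Calls in both directions are under 0.7% below a mean of 7, and lower calls outnumber higher ones in every bin from 7 up.

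Replicates of the IFNg and silvestrol group correlated with r = 0.981 over bright clusters and those of the DMSO group with r = 0.972, while arrays of different groups correlated with r between 0.917 and 0.930. The median absolute difference between replicates over bright clusters was 0.34 with IFNg and silvestrol and 0.43 with DMSO, against a median absolute change between the groups of 0.54. The change is between means of 2 arrays and the replicate differences are between single arrays. The absolute change exceeded 1 for 24.8% of bright clusters, against 7.25% between the IFNg and silvestrol replicates and 13.4% between the DMSO replicates.

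The largest rise was that of IDO1, the enzyme that starts tryptophan breakdown to kynurenine. It measured 17.90 and 18.82 in polysomal RNA with IFNg and silvestrol, against 7.11 and 5.98 with DMSO, a change of 11.82 ± 0.44 or 3604-fold (limma adjusted p = 1.63e-08). IRF1, the transcription factor of the interferon response, measured 16.47 and 16.35 against 6.04 and 5.79 and rose by 10.49 ± 0.28 (adjusted p = 1.56e-09). CXCL10, a chemokine that draws T cells, measured 14.79 and 15.07 against 5.35 and 5.27 and rose by 9.63 ± 0.53 (adjusted p = 8.35e-07). For these 3 genes every treated array lay more than 9 log2 units above every DMSO array. GBP1, a large GTPase of cell-autonomous defence, measured 15.34 and 16.01 with IFNg and silvestrol and 6.99 and 7.05 with DMSO, a rise of 8.66 ± 0.30 (adjusted p = 1.03e-08). Its pseudogene GBP1P1 gave 14.94 and 15.35 against 5.62 and 6.38. The pair is near-identical in sequence, and the probes may not separate them.

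TAP1, which carries peptides into the endoplasmic reticulum for class I molecules, measured 16.95 and 16.62 with IFNg and silvestrol and 8.61 and 8.85 with DMSO, a rise of 8.06 ± 0.26 (adjusted p = 7e-09). CD274, the gene of PD-L1, measured 14.76 and 14.87 against 7.17 and 7.37 and rose by 7.55 ± 0.33 or 187-fold (adjusted p = 9.04e-08). CTSS, a lysosomal protease that trims the invariant chain of class II molecules, measured 13.16 and 14.07 against 6.48 and 7.28 and rose by 6.73 ± 0.40 (adjusted p = 1.7e-06). The treated arrays lay above the DMSO arrays for all 3 genes, as the choice of the largest rises required. HLA-DQA1, a class II alpha chain, measured 12.68 and 13.09 against 6.43 and 6.29, a rise of 6.52 ± 0.36 (adjusted p = 8.69e-07). LRP2, the endocytic receptor megalin, measured 9.88 and 10.51 against 4.50 and 4.16, a rise of 5.87 ± 0.29 (adjusted p = 3.48e-07).

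**Figure D2:**
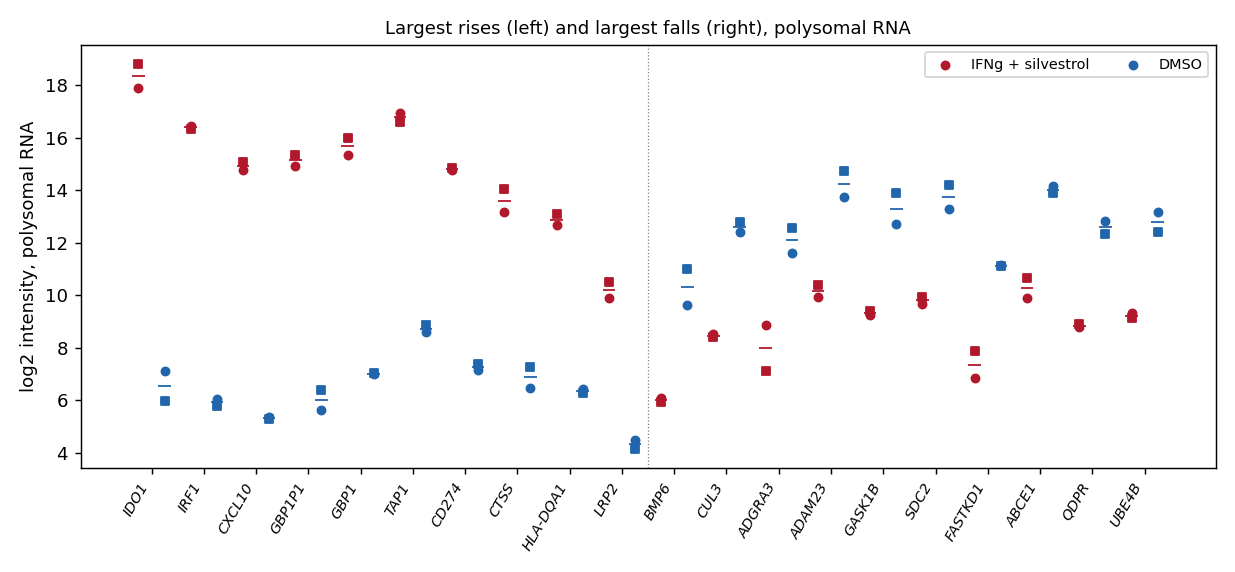
Log2 intensity in polysomal RNA of the 10 genes with the largest rises (left) and the 10 with the largest falls (right), with IFNg and silvestrol in red and DMSO in blue. Circles are replicate 1, squares replicate 2 and bars the group means. The 20 genes were chosen among those whose groups do not overlap.

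Interferon signalling genes other than IRF1 gave no call in polysomal RNA as deposited. Of the 5 listed members in the table, 1 rose and 0 fell, with a median change of 0.84, while 1.68% of all 15260 genes taken at 1 cluster each were higher and 3.17% lower. With arrays centred on bright clusters or with either quantile normalization, 2 rose and 0 fell. In total RNA 3 were higher and 0 lower, with a median of 1.53, where 213 of all 15260 genes were higher and 93 lower. IRF2, a relative of IRF1 that competes for the same sites, measured 10.90 and 11.10 against 9.95 and 9.63 (1.21 ± 0.29, adjusted p = 0.0618). The kinase JAK1 had a change of -1.03 ± 0.33 (adjusted p = 0.198) and the receptor chain IFNGR1 one of 0.56 ± 0.36 (adjusted p = 0.661). IRF1 was also higher with IFNg and silvestrol than with IFNg alone, where it measured 15.15 and 14.93 (a difference of 1.37, adjusted p = 0.0326). With arrays centred on bright clusters or quantile-normalized, 0 listed signalling genes were called higher than with IFNg alone and 1 lower. That comparison uses the same IFNg and silvestrol arrays, so the pair of changes is not independent, and its call was lost when any 1 of its 4 arrays was left out.

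Of the 7 guanylate-binding protein genes, 6 rose and 0 fell, beside 1.68% and 3.17% of all genes. Their median change was 5.25, against -0.05 over all genes and -0.35 over bright genes. GBP2 measured 15.37 and 15.87 with IFNg and silvestrol and 10.10 and 9.64 with DMSO (a rise of 5.75 ± 0.28, adjusted p = 3.48e-07). GBP4 measured 10.11 and 11.60 against 5.79 and 5.42 (5.25 ± 0.55, adjusted p = 0.000343) and GBP3 10.11 and 10.73 against 6.60 and 6.76 (3.74 ± 0.29, adjusted p = 2.53e-05). The treated arrays lay above both DMSO arrays for each of them. GBP6 was the member without a call, with dim values of 3.89 and 4.93 against 3.56 and 3.44. These genes form a family of close sequence, so a probe may read more than 1 member.

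Antigen presentation rose almost as a whole. Of 22 listed genes in the table, 20 were higher and 0 lower, beside 1.68% and 3.17% of all genes. Their median change was 3.92, and 3.55 to 4.29 when 1 of the 4 arrays was left out. HLA-DRB1 and TAPBP lost their calls in some of these fits. HLA-DRA, the class II alpha chain of HLA-DR, measured 18.91 and 18.93 with IFNg and silvestrol and 15.10 and 16.65 with DMSO, a rise of 3.05 ± 0.53 (adjusted p = 0.013). It lost its call without DMSO replicate 1 (2.27, adjusted p = 0.102) and without either IFNg and silvestrol replicate (adjusted p = 0.0978 and 0.0698). HLA-DMA, which loads peptides on class II molecules, measured 18.55 and 18.51 against 14.27 and 15.49 (3.65 ± 0.43, adjusted p = 0.000777). HLA-DPA1 measured 18.12 and 17.97 against 13.73 and 14.96 (3.70 ± 0.45, adjusted p = 0.00101). The DMSO replicates stood 1.2 or more apart in all 3, wider than the treated replicates. The 2 members without a call were CD74, the invariant chain, at 19.04 and 18.45 against 15.93 and 17.39 (2.08 ± 0.59, adjusted p = 0.13), and ERAP2, a peptide-trimming protease, at 7.56 and 7.43 against 5.99 and 5.91 (1.55 ± 0.38, adjusted p = 0.073).

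Among genes of the class I route, HLA-B, an antigen-presenting heavy chain, measured 16.97 and 16.79 against 12.87 and 13.33 and rose by 3.77 ± 0.35 (adjusted p = 0.000124). PSMB8 and PSMB9, subunits of the immunoproteasome that cuts peptides, rose by 5.41 ± 0.48 (adjusted p = 7.54e-05) and 4.67 ± 0.36 (adjusted p = 2.53e-05). ERAP1, which trims peptides to class I length, rose by 3.47 ± 0.34 (adjusted p = 0.000197). These 4 genes were picked after their values were seen. HLA genes are near-identical in stretches and vary between people and cell lines, so single members are uncertain.

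Chemokines were split. CXCL10 and CXCL9, both ligands of CXCR3, a chemokine receptor on T cells, rose and the other 4 of the 6 in the table gave no call. The median change of the 6 was 0.37, and 1.68% of all genes were higher and 3.17% lower. CXCL9 measured 7.01 and 7.65 against 5.08 and 5.64 (a rise of 1.97 ± 0.38, adjusted p = 0.0203), and its adjusted p lay between 0.0591 and 0.147 when any 1 of the 4 arrays was left out. CXCL11 had dim values of 5.42 and 5.27 against 4.40 and 4.77 (0.76 ± 0.25, adjusted p = 0.212), and the neutrophil chemokine CXCL8 had 6.68 and 5.87 against 6.47 and 7.56 (-0.74 ± 0.54, adjusted p = 0.714). The CXCL8 groups overlapped.

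Among immune checkpoint and tryptophan genes, 3 of 6 rose and 0 fell, beside 1.68% and 3.17% of all genes. Their median change was 1.48. PDCD1LG2, the gene of PD-L2, measured 6.87 and 7.57 with IFNg and silvestrol and 5.28 and 4.70 with DMSO (2.24 ± 0.35, adjusted p = 0.00632). It lost its call without DMSO replicate 2 (adjusted p = 0.0965) and without IFNg and silvestrol replicate 2 (adjusted p = 0.0592), which left 2 of the 6. KYNU, which acts on kynurenine downstream of IDO1, had 7.88 and 7.70 against 8.38 and 8.86 (-0.83 ± 0.28, adjusted p = 0.234). Set against IFNg alone, where it measured 9.05 and 9.29, KYNU was lower with IFNg and silvestrol (a difference of -1.38, adjusted p = 0.0305), a call lost when any 1 of those 4 arrays was left out.

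The antiviral genes that interferons induce were listed after values had been seen. Of 31 in the table, 23 were higher and 0 lower, beside 1.68% and 3.17% of all genes. Their median change was 2.74. With only the arrays compared in the fit, 20 were higher and 0 lower. When 1 of the 4 arrays was left out, the median was 2.60 to 2.94. Some calls, among them those of PARP9, SAMD9L and TNFSF10, were lost in at least 1 of these fits. PARP14, a mono-ADP-ribosyltransferase, measured 15.13 and 15.32 with IFNg and silvestrol and 9.84 and 9.33 with DMSO, a rise of 5.64 ± 0.25 (adjusted p = 1.05e-07). AIM2, a sensor of cytosolic DNA, measured 13.73 and 13.43 against 8.21 and 9.14 (4.91 ± 0.31, adjusted p = 4.19e-06), and TLR3, a sensor of double-stranded RNA, 13.52 and 14.13 against 9.12 and 10.44 (4.04 ± 0.44, adjusted p = 0.00045). IFI6, a mitochondrial interferon-induced protein, measured 17.61 and 17.21 against 14.28 and 15.88 (2.33 ± 0.41, adjusted p = 0.0136), a call that ended without DMSO replicate 1 (adjusted p = 0.0669) and without IFNg and silvestrol replicate 1 (adjusted p = 0.132). The DNA sensor IFI16 at 15.44 and 16.11 against 15.40 and 14.78 and the kinase EIF2AK2 (PKR) at 13.15 and 14.05 against 13.01 and 13.03 gave no call (adjusted p = 0.54 and 0.618).

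Few interferon-response genes differed past the test between IFNg with silvestrol and IFNg alone. IDO1 measured 18.23 and 18.83 in polysomal RNA with IFNg alone, TAP1 16.64 and 16.59 and HLA-DRA 18.88 and 19.08, and IFNg and silvestrol differed from IFNg alone by -0.17, 0.18 and -0.06 (adjusted p = 0.937, 0.868 and 0.982). A p that misses the threshold does not show that levels are the same. In that comparison 717 clusters were higher (1.09%) and 197 lower (0.301%), and 0 of 22 antigen presentation genes, 0 of 7 guanylate-binding protein genes and 3 of 31 antiviral genes were called by limma. At an unadjusted p below 0.05, 3 antigen presentation genes were higher and 1 lower, and 1 guanylate-binding protein gene was higher and 2 lower. The 3 antiviral genes were higher with silvestrol as deposited, and the polysomal IFNg arrays were dimmer, with mean intensities of 1237 and 1347. With arrays centred on bright clusters, 1 antiviral gene was higher and 1 lower, and 1 guanylate-binding protein gene was lower. Quantile normalization over all arrays gave the same counts. ISG15, a ubiquitin-like modifier, measured 9.78 and 9.94 with IFNg and silvestrol against 7.96 and 7.74 with IFNg alone (2.01, adjusted p = 0.0174), with 6.26 and 6.56 in DMSO cells. RTP4, an interferon-induced chaperone of receptors, and PARP10 differed by 1.41 (adjusted p = 0.0224) and 1.37 (adjusted p = 0.0246). The 3 calls fell to 0 without IFNg replicate 1 or IFNg and silvestrol replicate 1, and to 1 without replicate 2 of either group.

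Rapidly induced genes rose as well. Of 5 stress and immediate early genes in the table, 4 rose and 0 fell, beside 1.68% and 3.17% of all genes. Their median change was 3.19 in polysomal RNA. EGR1, whose CArG boxes are shown above, measured 18.29 and 18.21 with IFNg and silvestrol and 14.48 and 14.08 with DMSO, a rise of 3.98 ± 0.43 or 15.7-fold (adjusted p = 0.000439). JUN, a subunit of the AP-1 factor, measured 13.81 and 12.37 against 8.25 and 7.51 (5.21 ± 0.71, adjusted p = 0.00239), and ATF3, a stress-induced repressor, 10.41 and 10.24 against 7.59 and 6.68 (3.19 ± 0.53, adjusted p = 0.00919). The treated arrays lay above the DMSO arrays in all 3. DUSP1, a phosphatase of MAP kinases, measured 10.08 and 9.47 against 8.34 and 7.73 (1.74 ± 0.39, adjusted p = 0.0446). Its call was lost without any 1 of the 4 arrays compared (adjusted p between 0.0736 and 0.344), and also without any 1 array of the other groups except total RNA of DMSO cells. ASNS, asparagine synthetase, had overlapping groups at 13.22 and 15.07 against 14.24 and 12.42 and no call (adjusted p = 0.812). The count of 4 was 2 without DMSO replicate 2 and 2 without IFNg and silvestrol replicate 1, when ATF3 and DUSP1 lost their calls.

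With IFNg alone EGR1 measured 15.65 and 14.34, JUN 8.58 and 7.35 and ATF3 7.53 and 7.24 in polysomal RNA. The changes of IFNg alone against the same DMSO arrays were 0.72, 0.08 and 0.25 (adjusted p = 0.55, 0.98 and 0.911), and those of IFNg and silvestrol against IFNg alone were 3.26, 5.12 and 2.94 (adjusted p = 0.00343, 0.00438 and 0.0173). These comparisons share arrays with the one against DMSO. Of all genes, 2.74% were higher and 0.878% lower with IFNg and silvestrol than with IFNg alone. All 4 genes called against DMSO were higher against IFNg alone too, but 2 were without IFNg replicate 2 and 1 without IFNg and silvestrol replicate 1. Since no cells received silvestrol without IFNg, an effect of silvestrol by itself and one that needs IFNg cannot be told apart.

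A wider list of rapidly induced genes was put together after values had been seen. Its counts describe the members picked and do not test the direction described above. Of 27 in the table, 16 were higher and 0 lower against DMSO, beside 1.68% and 3.17% of all genes, with a median of 1.98. Against IFNg alone 19 were higher and 0 lower, where 2.74% of all genes were higher and 0.878% lower. KLF10, an early target of TGF-beta, measured 16.18 and 16.07 with IFNg and silvestrol, 12.77 and 12.12 with IFNg alone and 11.64 and 12.66 with DMSO (3.97 ± 0.38 against DMSO, adjusted p = 0.000158). HES1, a Notch target and repressor, measured 16.37 and 15.92 with both agents, 12.41 and 11.88 with IFNg alone and 12.05 and 12.52 with DMSO (3.86 ± 0.31, adjusted p = 3.73e-05). NR4A2, an orphan nuclear receptor, measured 10.80 and 10.34 with both agents, 6.91 and 5.58 with IFNg alone and 6.45 and 7.36 with DMSO (3.67 ± 0.41, adjusted p = 0.000614). In each of them only the silvestrol arrays stood apart from the rest. IER3, an anti-apoptotic early response gene, measured 19.04 and 18.38 with both agents, 16.05 and 15.05 with IFNg alone and 15.89 and 16.87 with DMSO (2.33 ± 0.38, adjusted p = 0.00893). PTGS2, the inducible cyclooxygenase, stood between with IFNg alone, at 8.41 and 8.11, against 10.99 and 10.43 with both agents and 6.50 and 6.62 with DMSO. The 16 calls against DMSO were 9 without DMSO replicate 1 and 8 without IFNg and silvestrol replicate 1, and the 19 against IFNg alone were 8 without IFNg replicate 2 or without IFNg and silvestrol replicate 1.

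**Figure D3:**
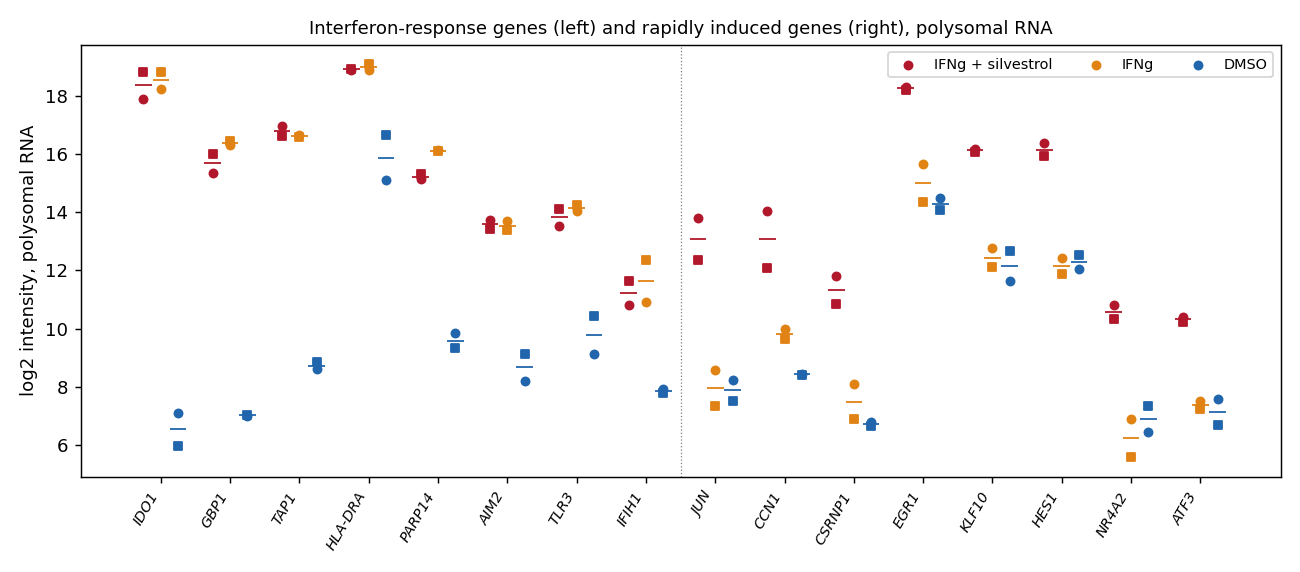
Log2 intensity in polysomal RNA of 8 interferon-response genes (left) and 8 rapidly induced genes (right) with IFNg and silvestrol (red), IFNg alone (orange) and DMSO (blue). Circles are replicate 1, squares replicate 2 and bars the group means. On the left the red and orange points both lie above the blue ones, and on the right the red points lie above both other groups.

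Of 6 genes of the eIF4F complex, which includes eIF4A, and of its regulators, 0 rose and 1 fell. Of all genes 1.68% were higher and 3.17% lower. The median change of the 6 was -0.58 in polysomal RNA. EIF4E2, a cap-binding relative of eIF4E, measured 11.43 and 11.35 with IFNg and silvestrol and 13.16 and 13.14 with DMSO (-1.76 ± 0.32, adjusted p = 0.0159). It lost its call when any 1 of the 4 arrays was left out, with adjusted p between 0.0856 and 0.121. The cap-binding protein EIF4E had 11.93 and 11.73 against 12.42 and 13.44 (-1.10 ± 0.38, adjusted p = 0.244). Its inhibitor EIF4EBP1 had 15.74 and 15.28 against 15.92 and 16.24 (-0.57 ± 0.32, adjusted p = 0.574), and EIF4H, a cofactor of eIF4A, 15.36 and 14.92 against 15.79 and 15.59 (-0.55 ± 0.26, adjusted p = 0.475). With IFNg alone EIF4EBP1 measured 13.52 and 13.07, lower than with DMSO (-2.79, adjusted p = 0.000875) and than with both agents, which were 2.21 above it (adjusted p = 0.00521).

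Oncoprotein genes often described as sensitive to eIF4A inhibition did not fall past the test. Of 5 in the table, 1 rose and 0 fell, beside 1.68% and 3.17% of all genes, with a median change of -0.80. MCL1, an anti-apoptotic BCL2 relative with a short-lived protein, measured 17.17 and 17.39 with IFNg and silvestrol and 14.28 and 14.61 with DMSO, a rise of 2.83 ± 0.27 or 7.12-fold (adjusted p = 0.000133). The treated arrays were clearly higher. MYC, a growth-promoting transcription factor, measured 10.61 and 10.41 against 12.14 and 11.15 (-1.13 ± 0.45, adjusted p = 0.357). The angiogenic factor VEGFA measured 13.53 and 12.62 against 13.47 and 14.28 (-0.80 ± 0.43, adjusted p = 0.548) and the cyclin CCND3 12.95 and 12.52 against 13.12 and 12.67 (-0.16 ± 0.35, adjusted p = 0.936). MYC did not overlap between the groups, while VEGFA and CCND3 did. Total RNA for MCL1 rose by 3.60 ± 0.27 (adjusted p = 1.31e-05).

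The largest fall was that of BMP6, a secreted ligand of the TGF-beta superfamily. It measured 6.09 and 5.93 with IFNg and silvestrol and 9.61 and 11.01 with DMSO, a change of -4.30 ± 0.39, or 19.7-fold lower (adjusted p = 9.87e-05). CUL3, the scaffold of a family of ubiquitin ligases, measured 8.54 and 8.40 against 12.41 and 12.78 (-4.13 ± 0.31, adjusted p = 2.22e-05). UBE4B, which extends ubiquitin chains, measured 9.31 and 9.15 against 13.16 and 12.40 (-3.55 ± 0.29, adjusted p = 3.73e-05). All the treated arrays were at least 3 log2 units below the DMSO arrays. ABCE1, which splits ribosomes after termination so that they can be used again, measured 9.91 and 10.65 with IFNg and silvestrol and 14.18 and 13.88 with DMSO (-3.75 ± 0.33, adjusted p = 8.01e-05). FASTKD1, of a family that handles mitochondrial RNA, measured 6.84 and 7.87 against 11.17 and 11.10 (-3.78 ± 0.36, adjusted p = 0.000139), and QDPR, which regenerates tetrahydrobiopterin, 8.79 and 8.90 against 12.84 and 12.34 (-3.75 ± 0.53, adjusted p = 0.00331).

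The other 4 of the 10 largest falls encode proteins of the cell surface or the secretory route. ADGRA3, an adhesion G protein-coupled receptor, measured 8.88 and 7.13 with IFNg and silvestrol and 11.62 and 12.57 with DMSO (-4.09 ± 0.61, adjusted p = 0.00442). Its call was lost without DMSO replicate 2 (-3.62, adjusted p = 0.0727), the only loss among these 20 genes in 22 alternative settings. ADAM23, a membrane protein of the ADAM family, measured 9.92 and 10.40 against 13.75 and 14.74 (-4.08 ± 0.33, adjusted p = 3.6e-05), and GASK1B, a Golgi-associated kinase, 9.24 and 9.42 against 12.71 and 13.91 (-3.98 ± 0.35, adjusted p = 7.27e-05). SDC2, a syndecan that carries heparan sulphate chains, measured 9.67 and 9.95 against 13.28 and 14.21 (-3.93 ± 0.35, adjusted p = 7.75e-05). The groups do not overlap in any of them, which the choice of these genes required.

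The falls did not share 1 pattern with IFNg alone. CUL3 measured 12.62 and 11.98 and UBE4B 12.70 and 13.01 in polysomal RNA with IFNg alone, changes against DMSO of -0.30 and 0.08 (adjusted p = 0.786 and 0.956). GASK1B measured 10.52 and 10.18 and QDPR 8.80 and 10.39, changes of -2.96 and -2.99 (adjusted p = 0.00108 and 0.0107). Against IFNg alone, IFNg and silvestrol gave -3.83 for CUL3 and -3.63 for UBE4B (adjusted p = 0.000134 and 0.000113), but -1.02 for GASK1B and -0.75 for QDPR (adjusted p = 0.228 and 0.655). BMP6 was intermediate with IFNg alone, at 8.07 and 7.49.

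Genes of heparan sulphate, the sugar chain that SDC2 carries, were listed after SDC2 and others had been seen among the falls. Of 24 in the table, 9 were lower and 2 higher, with a median change of -0.96, while 3.17% of all genes and 8.57% of bright genes were lower and 1.68% and 3.85% higher. SDC2 is counted among the 9, so the count describes a list drawn from these falls and is no test. With only the arrays compared in the fit, 2 were lower and 2 higher. SDC1, another syndecan, measured 8.40 and 7.95 with IFNg and silvestrol and 10.45 and 10.53 with DMSO (-2.32 ± 0.27, adjusted p = 0.000749). EXT1, which polymerises the chain, measured 11.44 and 11.21 against 13.15 and 14.63 (-2.56 ± 0.47, adjusted p = 0.0159), and HS2ST1, which adds sulphate to it, 9.94 and 9.77 against 11.72 and 13.22 (-2.62 ± 0.43, adjusted p = 0.00835). The treated arrays lay below the DMSO arrays in all 3, but the DMSO replicates of EXT1 and HS2ST1 stood 1.5 apart. Calls of lower members were 2 without DMSO replicate 2 and 3 without either IFNg and silvestrol replicate. The 2 higher members were the basement membrane proteoglycans HSPG2 (perlecan), at 10.49 and 10.17 against 7.89 and 8.13 (2.32 ± 0.39, adjusted p = 0.0105), and AGRN (agrin), at 10.41 and 10.26 against 8.76 and 8.10 (1.90 ± 0.30, adjusted p = 0.00643). They were 1 without DMSO replicate 1 and 0 without DMSO replicate 2 or without IFNg and silvestrol replicate 1.

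Small nuclear RNAs, which take part in splicing and are not translated, were more often higher than lower in this polysomal fraction. The families were chosen after values had been seen, and their copies are near-identical, so 1 RNA species may be read by many clusters. Of 76 U1 clusters, 21 were higher and 0 lower, and of 656 U6 clusters, 43 were higher and 2 lower. These are taken at 1 cluster per symbol, and of all genes taken so 1.68% were higher and 3.17% lower. Of bright genes 3.85% were higher and 8.57% lower. RNVU1-7, a U1 variant, measured 18.97 and 18.63 with IFNg and silvestrol and 17.41 and 17.45 with DMSO (1.38 ± 0.26, adjusted p = 0.0181), and RNU6-25P, a U6 copy, 15.70 and 14.98 against 13.48 and 13.50 (1.86 ± 0.32, adjusted p = 0.012). The median U1 level was 6.38 and 6.26 with IFNg and silvestrol and 5.60 and 5.74 with DMSO, and the median U6 level 5.11 and 4.80 against 4.56 and 4.40. Both families lay higher on both treated arrays. In total RNA limma called 0 U1 and 0 U6 clusters, where 213 of all 15260 genes were higher and 93 lower. At an unadjusted p below 0.05, 12 U1 and 26 U6 clusters were higher there and 0 U1 and 11 U6 lower. For the polysomal change minus the total RNA change, limma also called 0 U1 and 0 U6 clusters. At an unadjusted p below 0.05 that difference was above 0 for 16 U1 and 117 U6 clusters and below 0 for 0 U1 and 6 U6. Median changes were 0.40 and 0.08 in total RNA, against 0.85 and 0.48 in polysomal RNA. The U1 count was 2 without either DMSO replicate, 3 without IFNg and silvestrol replicate 1 and 8 without replicate 2, and the U6 count 16, 2, 3 and 49 in the same order. With arrays centred on bright clusters 30 U1 and 87 U6 clusters were higher, and with only the arrays compared in the fit 9 and 18.

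Of 15 small Cajal body RNAs, which guide modification of small nuclear RNAs, 3 were higher and 0 lower. Of 93 small nucleolar RNAs, which guide modification of ribosomal RNA, 4 were higher and 0 lower. Beside these stand the same 1.68% and 3.17% of all genes and 3.85% and 8.57% of bright genes. SCARNA7 measured 13.31 and 12.20 with IFNg and silvestrol and 10.03 and 11.05 with DMSO (2.21 ± 0.42, adjusted p = 0.0203). SCARNA1 measured 8.34 and 8.26 against 5.83 and 6.20 (2.29 ± 0.35, adjusted p = 0.00564). The small Cajal body count was 0 without DMSO replicate 1 or without IFNg and silvestrol replicate 1 and 2 without DMSO replicate 2, and the nucleolar count was 0 without DMSO replicate 2 or either IFNg and silvestrol replicate and 2 without DMSO replicate 1. With an array of total RNA left out, the Cajal body count was 5 without either IFNg replicate and the nucleolar count 2 without either IFNg and silvestrol replicate. With arrays centred on bright clusters 5 Cajal body and 8 nucleolar RNAs were higher, and with the intensity trend the nucleolar count was 2.

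**Figure D4:**
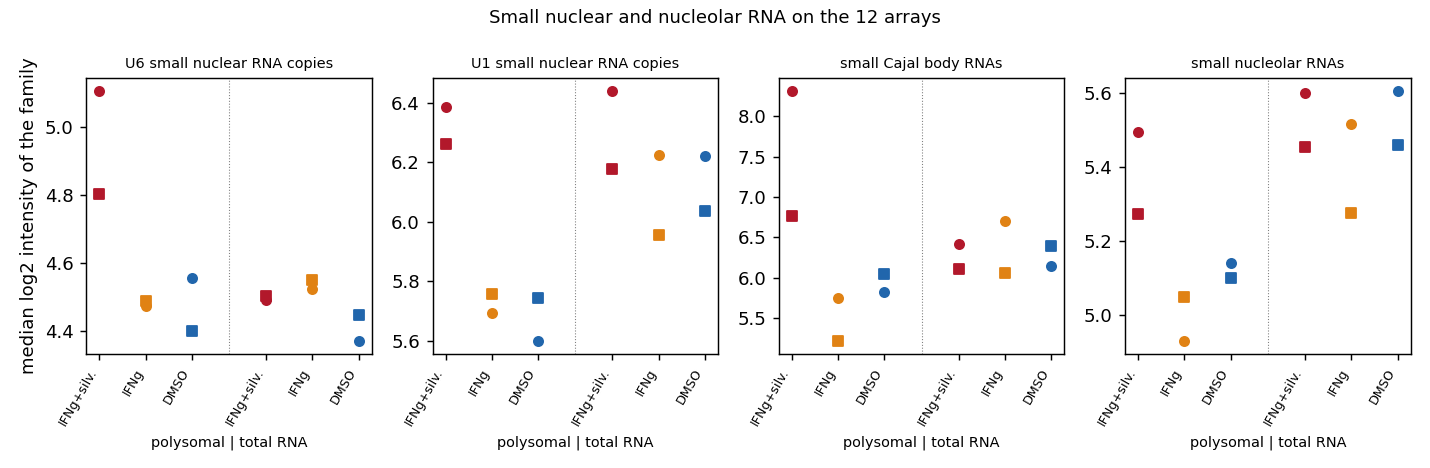
Median log2 intensity of 4 small RNA families on each of the 12 arrays, with polysomal RNA left and total RNA right of the dotted line in each panel, and IFNg and silvestrol (red), IFNg alone (orange) and DMSO (blue). Circles are replicate 1 and squares replicate 2. In polysomal RNA both red points lie above the orange and blue ones in all 4 panels, and in total RNA they do so in no panel.

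Genes of the ribosome and of chromatin gave 0 calls in this comparison, where 1.68% of all genes were higher and 3.17% lower. The 27 ribosomal protein genes had a median change of -0.26 as deposited and of 0.00 with arrays centred on bright clusters, and limma called 0, with 1 higher and 5 lower at an unadjusted p below 0.05. RPS23 measured 18.59 and 18.50 with IFNg and silvestrol and 18.67 and 18.78 with DMSO. The 70 replication histone genes had median levels of 13.84 and 13.81 against 13.17 and 12.91, a median change of 0.40, and limma called 0 of them, with 14 higher and 0 lower at an unadjusted p below 0.05. Without either DMSO replicate of total RNA 4 were called higher. Against IFNg alone, 2.74% of all genes were higher and 0.878% lower. Of the 27 ribosomal protein genes 6 were higher there and 0 lower, with a median difference of 1.12. With quantile normalization over all arrays 2 of them were higher and 0 lower. The histone medians were 10.39 and 11.15 with IFNg alone, and against it 33 of the 70 histone genes were higher and 0 lower. That count was 14 and 15 without IFNg replicate 1 or 2, and 4 and 19 without IFNg and silvestrol replicate 1 or 2.

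Total RNA of the same treatments addresses whether transcripts themselves changed. There 350 clusters were higher (0.534%) and 117 lower (0.179%). The arrays are other ones than those of the polysomal comparison, but the labels do not say whether total and polysomal RNA of a replicate number came from 1 culture. Over bright clusters the deviations of same-numbered total and polysomal arrays from their group means correlated with r = 0.32 for IFNg and silvestrol and r = 0.25 for DMSO. Of the 364 polysomal rises, 167 (45.9%) were called higher in total RNA too, which is 47.7% of the rises in total RNA, and 0 were called lower. Of the 599 polysomal falls, 94 (15.7%) were called lower in total RNA too, which is 80.3% of the falls there, and 0 were called higher. In total RNA the median change of the clusters that rose on polysomes was 1.38, beside 1.98 in polysomal RNA, and that of the clusters that fell was -0.93, beside -1.80. The sets were picked on the polysomal values, which favours the larger size there. The direction was shared by 92.3% of the rises and 95.7% of the falls. Over the 7808 bright clusters the changes in the fractions correlated with r = 0.761 (rho = 0.631), across clusters of 8 arrays, which are not independent replicates. The total RNA counts were 183 higher and 40 lower without IFNg and silvestrol replicate 1, 181 and 38 without replicate 2 of that group, 218 and 55 without DMSO replicate 1, and 225 and 103 without DMSO replicate 2.

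**Figure D5:**
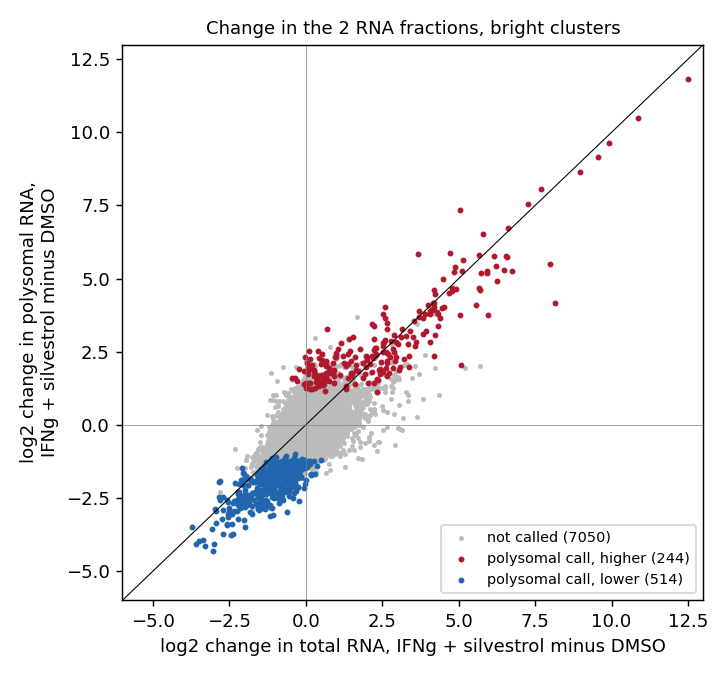
Change of each bright cluster in polysomal RNA (vertical) and in total RNA (horizontal), IFNg and silvestrol minus DMSO, on the log2 scale. Clusters called in polysomal RNA are red (244 higher) or blue (514 lower), the other 7050 grey, and the line marks equal change. Large rises lie along the line and most falls lie below it.

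The difference between the fractions was tested as the polysomal change minus the total RNA change. In limma 0 clusters passed in either direction at an adjusted p below 0.05, and the smallest adjusted p was 0.0609. At an unadjusted p below 0.05, 1696 clusters had a higher and 1843 a lower change on polysomes. IDO1 had a total RNA change of 12.51 ± 0.44 and a difference of -0.69 ± 0.62 (adjusted p = 0.992), and EGR1 4.17 ± 0.43 and -0.19 ± 0.61 (adjusted p = 0.999). ABCE1 changed by -2.38 ± 0.33 in total RNA and its difference was -1.37 ± 0.47 (adjusted p = 0.83). EIF4E2 had a total RNA change of -0.41 ± 0.32 and a difference of -1.36 ± 0.45 (adjusted p = 0.802). HSPG2 measured 8.78 and 8.14 against 8.26 and 8.70 in total RNA, with a difference of 2.34 ± 0.55 (adjusted p = 0.706). GBP3 had a difference of -2.20 ± 0.41 (adjusted p = 0.672), with a rise of 5.94 ± 0.29 in total RNA. The median standard error of such a difference was 0.43, against 0.31 for the polysomal change alone.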

How the data were processed

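RNA was labelled with biotin and read on Affymetrix arrays, per the labels' protocols. The authors deposited 1 linear intensity per transcript cluster and array. How these were background-corrected and normalized, with which software and genome build, is not given in the sources used here. No detection call accompanies the values, so dim levels are not separated from background. Log2 was taken with no pseudocount and no filter. In R 4.3.3, limma 3.58.1 fitted each of the 6 group means on the full set of 12 arrays by lmFit, and eBayes moderated the variances, with 6.72 prior beside 6 residual degrees of freedom. Adjustment of p-values was by Benjamini-Hochberg over 65535 clusters. Precision is limited by having 2 arrays per group. The fit was tested on simulated data in which fewer clusters were changed than were called here. It called 2% of bright clusters changed by 1 log2 unit, 60% of those changed by 2, 78% by 3 and 96% by 4. False calls numbered 3.

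Symbols come from GEO's platform annotation, which can be old: 16130 clusters have 1 symbol, 419 several and 48986 none, and 10777 were matched to RefSeq by gene ID. A gene is read from its cluster with the highest mean over the 12 arrays. Samples were grouped by title. Named genes are the 10 largest rises and 10 largest falls among called bright clusters without overlap, and up to 4 members per list, those with the highest mean. The bright bound uses the mean of all groups, so a named rise can be dim in DMSO cells. Other genes named, and the lists of antiviral, further rapidly induced, heparan sulphate, small RNA, ribosomal protein and histone genes, were chosen after their values were seen. All members and lists were chosen with earlier results of these data known. Alternatives were a replicate-number block, a culture block, only the arrays compared, an intensity trend, centring on all or on bright clusters, quantile normalization, filters on dim clusters, a fold of 1.5, and leaving out each array. Clusters of the remaining chromosomes were not analysed here. Figures were drawn with matplotlib 3.10.9.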

Additional observations from a re-analysis of the deposited data

How the results depend on the processing

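The 10 largest rises and 10 largest falls kept their direction in all 440 values from 22 alternatives per gene, and 439 of these passed the threshold, the exception being ADGRA3 without polysomal DMSO replicate 2. Counts moved more. Polysomal rises numbered 364 and falls 599 as reported, and 241 and 293 with only the arrays compared in the fit, 739 and 378 with arrays centred on bright clusters, 408 and 396 with quantile normalization within each fraction, and 444 and 931 with only bright clusters tested, where fewer p-values are adjusted. Leaving out 1 array gave 147 to 380 rises and 120 to 621 falls. In total RNA, 350 rises and 117 falls became 335 and 189 with only bright clusters, and 181 to 359 and 38 to 137 when 1 array was left out. The count of clusters with a lower change on polysomes than in total RNA, 0 as reported, was 1 with the replicate block, the random block for culture, the intensity trend, centring on bright clusters, either quantile normalization or only clusters at or above the median intensity, and 0 to 2 when 1 array was left out. The median polysomal change of bright clusters, -0.23 as reported, was 0.041 with arrays centred on bright clusters, -0.043 with quantile normalization over all arrays and -0.041 with quantile normalization within each fraction, and -0.32 to -0.13 when 1 array was left out. Except where an alternative tests fewer clusters or fits fewer arrays, the cause was not tested. With the replicate number as a block there were 403 polysomal rises and 635 falls, and same-numbered replicates of these groups deviated from their means with a correlation of -0.048 over all clusters and -0.19 over bright ones. Over bright clusters other pairs of groups gave -0.19 to 0.57, and whether a number marks a shared culture is not stated. With 2 arrays per group, the median standard error of 0.31 for a log2 change limits what could be called, and dim clusters may lie at background.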
